A study of Homo sapiens with 6 samples.

Results

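G2 and mitosis genes were measured in T24, an established line from a human bladder carcinoma, treated with lipopolysaccharide (LPS) plus nigericin or with vehicle. The set is 44 genes chosen by name, and all 44 were found among the 37871 genes of the deposited count table. LPS, from the outer membrane of Gram-negative bacteria, is sensed through TLR4, while nigericin lets potassium out of cells, a trigger of the NLRP3 inflammasome. There were 3 libraries of total RNA from treated cells and 3 from vehicle cells, all from the same line grown in high glucose DMEM with antibiotics, and the labels give neither dose nor duration. The labels name no group given 1 agent alone, so the effects of LPS and of nigericin cannot be told apart. T24 is a single tumour line, and the labels do not name the libraries as separate cultures or say whether both groups were prepared together, so each p-value rests on library-to-library spread alone, which may be technical.

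Entry into mitosis is driven by CDK1 bound to cyclin B. WEE1 holds that kinase inactive and the CDC25 phosphatases release it, while polo-like and Aurora kinases build the spindle and the chromosomal passenger complex corrects faulty attachments. The spindle checkpoint then restrains CDC20, the activator of the anaphase-promoting complex (APC/C), until every kinetochore is attached. Most of these genes are transcribed in late cell cycle through promoters with CCAAT boxes, bound by NF-Y, and CHR elements, which the MuvB complex binds as a repressor with p130 (DREAM) in resting cells and as an activator with B-MYB and FOXM1 in G2. In bulk RNA, fewer cells in G2 or mitosis and less of these transcripts per cell cannot be told apart.

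Libraries held 66180407 to 86594539 counts in treated and 81917343 to 89152224 in vehicle cells, and the lowest count of any of the 44 genes in any library was 282. Levels are in CPM, counts scaled to TMM-normalised library size. Of the 9 epithelial and urothelial markers, only the keratin genes KRT7, KRT8, KRT18 and KRT19 marked the cells as epithelial in both groups. The 9 markers summed to 3510 to 4512 CPM in treated and 6536 to 9536 CPM in vehicle cells. EPCAM was at 2.25 to 3.34 CPM in treated and 1.13 to 2.34 CPM in vehicle cells. CDH1, UPK1B, UPK2 and UPK3A were each under 1 CPM in every library. The 3 mesenchymal markers summed to 6663 to 9102 CPM in treated and 2642 to 4034 CPM in vehicle cells, and their part in the results was not tested. Most of that sum was FN1 (7753 CPM in treated and 3164 CPM in vehicle cells on average), while VIM was at 75.3 CPM in treated and 89.7 CPM in vehicle cells and did not pass. CDH2 rose, at 117 CPM in treated and 34.1 CPM in vehicle cells (log2 fold change 1.78, edgeR adjusted p = 0.000164). The 3 leukocyte markers measured summed to 3.08 to 4.73 CPM in treated and 2.64 to 4.42 CPM in vehicle cells, and the 3 endothelial markers to 0.476 to 0.947 CPM in treated and 0.735 to 0.918 CPM in vehicle cells. HBB, the erythroid marker measured, was at no more than 0.0719 CPM in treated and at 0 in vehicle cells. Mitochondrially encoded genes took 12.04% to 12.39% of counts in treated and 6.49% to 7.33% in vehicle libraries, and their part in the results was not tested. Base composition moved with the groups. Over 13976 protein-coding genes, a library's departure from the mean of all 6 correlated with transcript GC content at -0.55 to -0.44 (Spearman) in treated libraries and at 0.20 to 0.62 in vehicle libraries.

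Of the 44 genes, 23 rose after LPS plus nigericin, 7 fell and 14 did not pass an edgeR quasi-likelihood test at a Benjamini-Hochberg adjusted p under 0.05 over all 19170 genes tested. That is 52.3% higher and 15.9% lower, where 28.9% of all tested genes were higher and 26.4% lower (55.3% in either direction). The median log2 fold change was 0.48 in the 44 genes and 0.0016 over all tested genes. Called rises of at least 2-fold were found in 14 of the 44 genes (31.8%, against 17.8% of all tested genes) and called falls of that size in 2 (4.55%, against 14.3%). The treated and vehicle libraries did not overlap for 33 of the 44 genes (75%), against 67% of all tested genes, with 24 higher and 9 lower in treated cells, against 35% and 32% of all tested genes. Summed over the 44 genes, the level was 6279 to 6523 CPM in treated and 5819 to 5950 CPM in vehicle cells. As a share of raw counts, without TMM scaling, the groups overlapped, at 0.605% to 0.641% in treated and 0.554% to 0.644% in vehicle libraries. Differences between roles were not tested. Kinesins, condensin and cytokinesis genes and the checkpoint genes BUB1, BUB1B, TTK and MAD2L1 made up most of the rises. PLK1, AURKB, CDCA8, CDC20, BUB3, CCNA2 and CDC25C made up the falls.

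A second fit, here called the composition-corrected fit, removed each library's trend with GC content and transcript length by loess offsets. A treatment effect that tracks GC content or length would be taken out with it. In it, 13 of the 44 genes were higher and 14 lower, against 23.8% and 26.6% of 18620 tested genes, and the median was 0.045. All 7 falls were called again. Of the 23 rises, 12 were called again, 9 did not pass and 2, CENPF and KIF11, were called lower. Values of both fits are given below for the genes called in either.

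**Figure D1:**
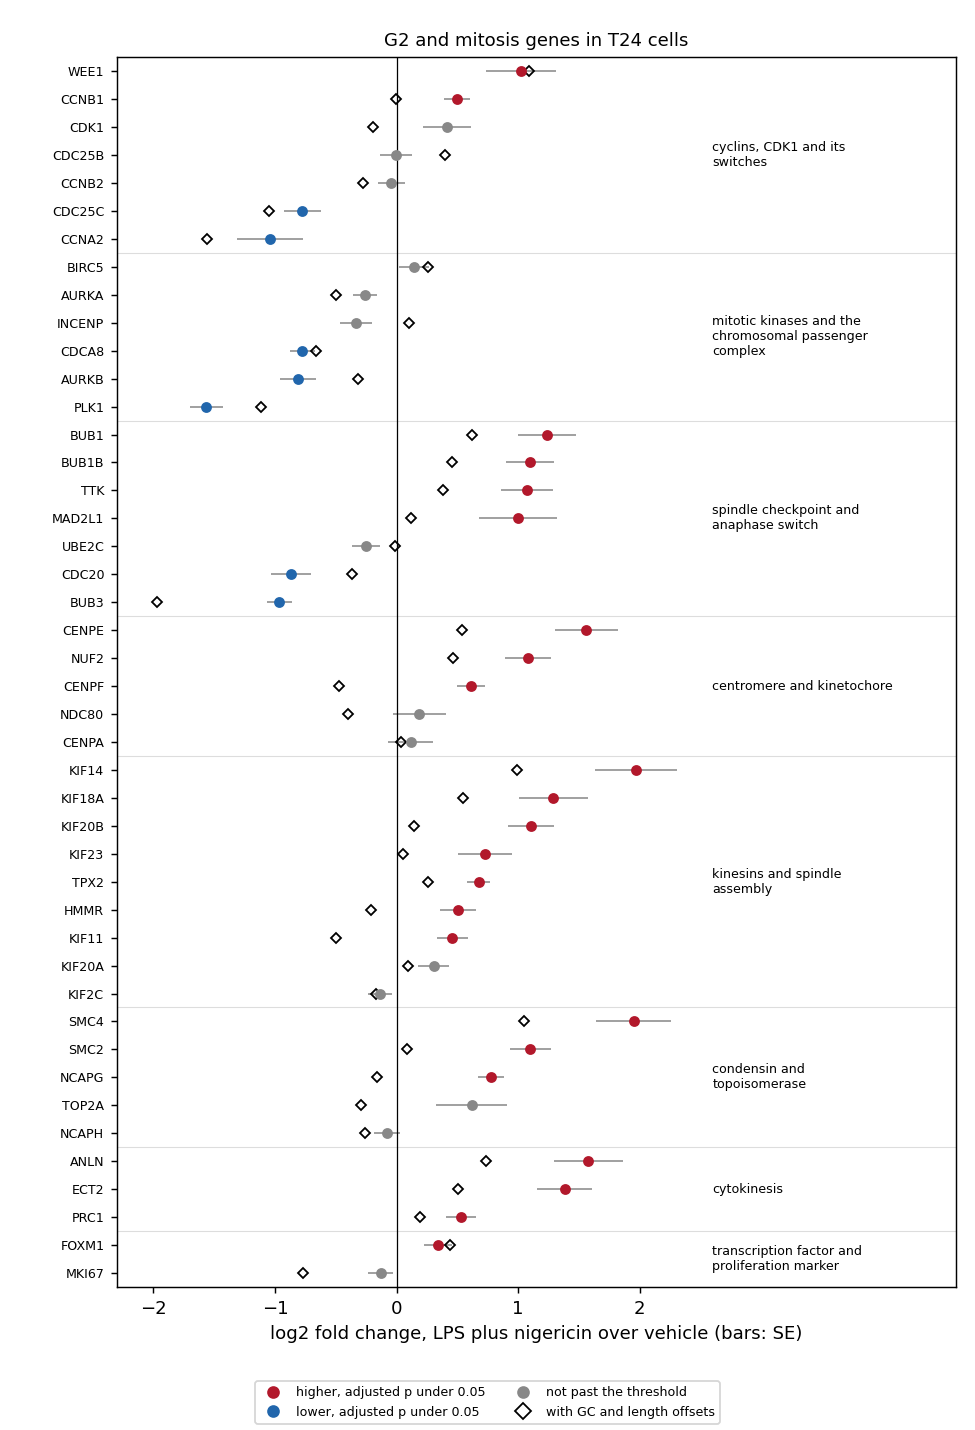
Log2 fold change of each of the 44 genes, LPS plus nigericin over vehicle, grouped by role and ordered by size within a role. Filled points are the edgeR estimate with its SE (3 libraries a group), coloured by call, and open diamonds are the composition-corrected estimate. The 7 falls stay left of 0 in both fits, while the diamonds of the rising genes lie left of their points except for WEE1 and FOXM1, and left of 0 for CENPF, KIF11, HMMR, NCAPG and CCNB1.

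The 3 largest falls with a promoter entry were those of PLK1, CCNA2 and CDC20, and the 3 largest rises those of KIF14, SMC4 and ANLN. PLK1 encodes polo-like kinase 1, which drives mitotic entry, spindle assembly and cytokinesis. It stood at 144, 165 and 166 CPM in treated cells, against 462, 537 and 407 CPM in vehicle cells. Each treated library was far below each vehicle library, a 2.96-fold lower level (log2 fold change -1.56, SE 0.136, edgeR adjusted p = 0.000121). KIF14, a kinesin of the midbody, was at 27.0, 19.7 and 22.9 CPM in treated cells, against 4.71, 3.70 and 9.30 CPM in vehicle cells. The groups did not overlap, with vehicle library 3 the highest of its group, and the level was 3.92-fold higher in treated cells (log2 fold change 1.97, SE 0.335, edgeR adjusted p = 0.00188). SMC4, the ATPase subunit shared by both condensins, was at 254, 200.1 and 229 CPM in treated cells, against 56.6, 33.7 and 86.2 CPM in vehicle cells. Its lowest treated library was more than 2 times its highest vehicle library (log2 fold change 1.95, SE 0.306, edgeR adjusted p = 0.00131). In the composition-corrected fit PLK1 was at -1.12, KIF14 at 0.99 and SMC4 at 1.05, and all 3 passed. CCNA2, CDC20 and ANLN are described with their roles below.

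**Figure D2:**
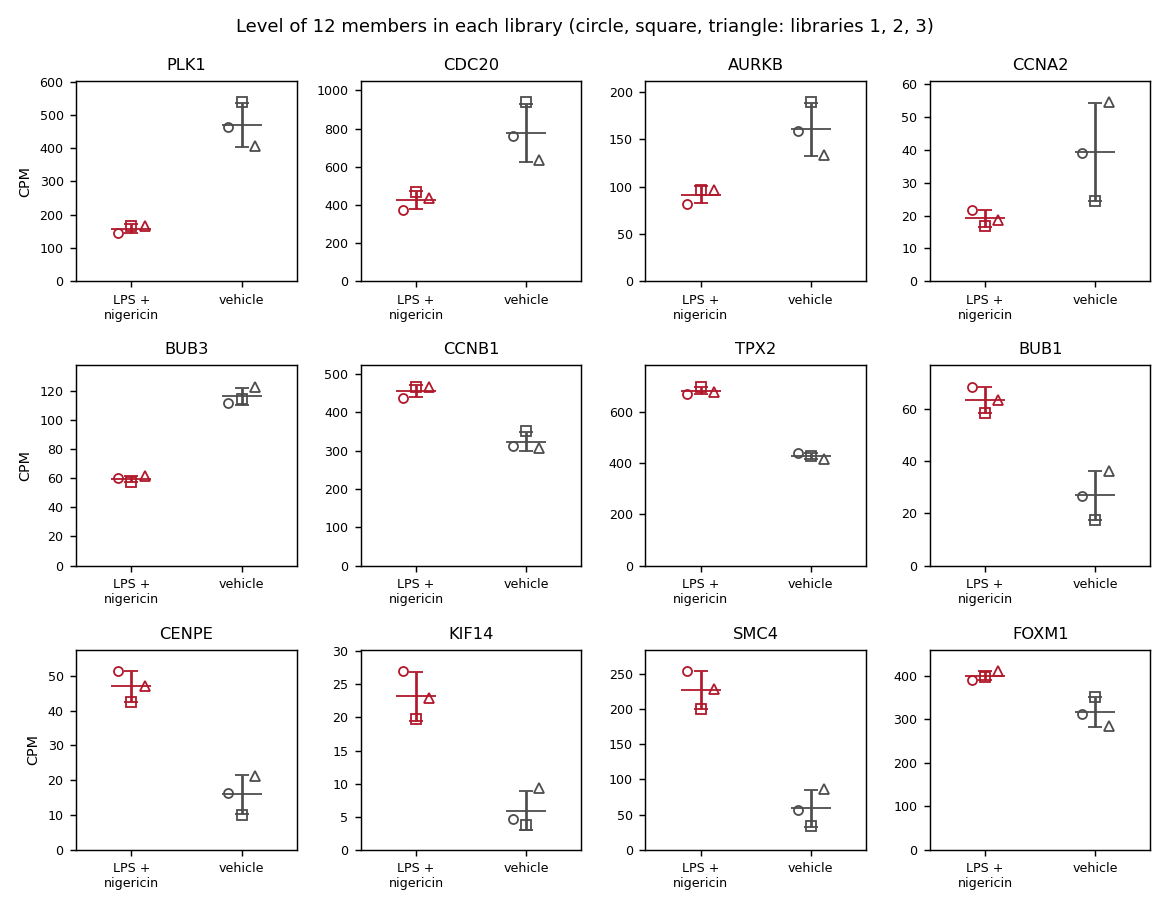
CPM of 12 of the 44 genes in each library, LPS plus nigericin on the left and vehicle on the right of each panel, with the mean and SD (n = 3) as a dash and bar. Each panel starts at 0. Treated libraries lie below every vehicle library for PLK1, CDC20, AURKB, CCNA2 and BUB3 and above every vehicle library for the other genes shown.

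The promoters of these 6 genes are shown because the genes moved farthest in opposite directions while belonging to the same late cell cycle programme. Each run is the 250 bases before the RefSeq start on GRCh38.p14, 5′ to 3′ on the gene's strand, with matches to the CHR letters TTTGAA and to CCAAT, on either strand, in capitals.
PLK1, chr16:23678639-23678888, plus strand: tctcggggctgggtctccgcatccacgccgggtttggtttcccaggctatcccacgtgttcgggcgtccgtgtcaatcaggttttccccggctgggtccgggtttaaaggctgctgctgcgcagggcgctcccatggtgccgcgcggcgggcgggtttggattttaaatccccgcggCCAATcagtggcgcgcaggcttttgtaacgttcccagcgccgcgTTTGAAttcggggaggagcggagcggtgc
CCNA2, chr4:121823884-121824133, minus strand: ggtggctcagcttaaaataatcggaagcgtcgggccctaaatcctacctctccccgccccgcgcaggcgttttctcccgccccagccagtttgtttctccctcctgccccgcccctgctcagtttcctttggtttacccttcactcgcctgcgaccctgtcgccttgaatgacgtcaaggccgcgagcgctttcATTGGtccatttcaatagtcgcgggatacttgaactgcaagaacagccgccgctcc
CDC20, chr1:43358731-43358980, plus strand: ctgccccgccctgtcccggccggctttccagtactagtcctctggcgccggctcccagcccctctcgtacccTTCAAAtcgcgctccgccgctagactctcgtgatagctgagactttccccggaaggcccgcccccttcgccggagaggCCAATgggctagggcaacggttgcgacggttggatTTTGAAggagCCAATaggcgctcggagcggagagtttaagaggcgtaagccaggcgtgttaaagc
KIF14, chr1:200620752-200621001, minus strand: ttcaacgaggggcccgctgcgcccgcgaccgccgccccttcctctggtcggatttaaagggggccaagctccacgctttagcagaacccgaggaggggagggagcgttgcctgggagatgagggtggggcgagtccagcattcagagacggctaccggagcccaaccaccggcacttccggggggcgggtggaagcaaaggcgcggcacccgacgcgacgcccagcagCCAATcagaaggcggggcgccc
SMC4, chr3:160399400-160399649, plus strand: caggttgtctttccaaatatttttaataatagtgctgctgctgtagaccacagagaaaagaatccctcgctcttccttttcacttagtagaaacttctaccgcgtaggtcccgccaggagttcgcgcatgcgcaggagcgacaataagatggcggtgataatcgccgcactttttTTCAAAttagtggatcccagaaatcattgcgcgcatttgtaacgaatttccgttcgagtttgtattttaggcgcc
ANLN, chr7:36389612-36389861, plus strand: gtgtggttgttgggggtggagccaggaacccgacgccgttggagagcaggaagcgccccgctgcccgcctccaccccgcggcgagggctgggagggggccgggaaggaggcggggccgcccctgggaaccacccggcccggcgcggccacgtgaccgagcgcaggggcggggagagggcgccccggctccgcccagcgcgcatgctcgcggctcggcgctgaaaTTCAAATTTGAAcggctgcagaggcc

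PLK1 and CDC20, which fell, held both elements. ANLN and SMC4, which rose, held the CHR letters and no CCAAT, and KIF14, which rose, and CCNA2, which fell, held CCAAT and no TTTGAA in this window. In ANLN, 2 matches on opposite strands lie end to end from base -26. Of the 44 genes, 36 had an entry in the RefSeq promoter table. Those with none were WEE1, AURKA, BIRC5, BUB3, TTK, UBE2C, TPX2 and FOXM1. TTTGAA on either strand was found in 19 of these 36 (52.8%) and in 13.6% of 27305 promoters of the same length. CCAAT on either strand was found in 25 of them (69.4%) and in 33% of all promoters. Both elements occurred in genes of each direction. TTTGAA was present in 10 of 19 genes that rose, 3 of 6 that fell and 6 of 11 that did not pass, and CCAAT in 12, 5 and 8 of the same genes. The related letters TTCGAA were in 0 of 36 and in 1.2% of all promoters. A match describes letters and not a bound site. No other CHR letters were searched for, so a promoter without a match, such as that of CCNA2, is not shown to lack the element.

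Among the cyclins, CDK1 and its switches, 2 genes rose, 2 fell and 3 did not pass. CCNB1, the cyclin that carries CDK1 into mitosis, was at 438, 467 and 465 CPM in treated cells, against 312, 352 and 307 CPM in vehicle cells. It was higher in every treated library (log2 fold change 0.50, SE 0.106, edgeR adjusted p = 0.00522). WEE1, the kinase that inhibits CDK1, was at 32.7, 25.9 and 29.5 CPM in treated cells, against 15.4, 8.25 and 19.6 CPM in vehicle cells. The groups did not overlap, and vehicle library 2 was the lowest (log2 fold change 1.03, SE 0.288, edgeR adjusted p = 0.0169). CCNA2, the cyclin of S phase and G2, was at 21.8, 16.9 and 18.7 CPM in treated cells, against 39.1, 24.6 and 54.5 CPM in vehicle cells. All treated libraries were lower, with vehicle library 2 the nearest to them (log2 fold change -1.04, SE 0.271, edgeR adjusted p = 0.0122). CDC25C, a phosphatase that activates CDK1, was at 23.2, 26.2 and 22.9 CPM in treated cells, against 39.9, 48.7 and 35.1 CPM in vehicle cells, again without overlap (log2 fold change -0.78, SE 0.153, edgeR adjusted p = 0.0037). CDK1 itself was at 78.3, 72.1 and 83.1 CPM in treated cells, against 57.7, 42.1 and 75.2 CPM in vehicle cells, and treated library 2 lay below vehicle library 3 (log2 fold change 0.41, SE 0.200, edgeR adjusted p = 0.111). CDC25B, the phosphatase that starts CDK1 activation at the centrosome, was at 487, 537 and 544 CPM in treated cells, against 509, 605 and 456 CPM in vehicle cells, with the groups interleaved (log2 fold change -0.0030, edgeR adjusted p = 0.987). CCNB2, the second B cyclin, also overlapped at -0.044 on the log2 scale.

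In the composition-corrected fit the CCNB1 difference was -0.0080 (edgeR adjusted p = 0.968), CCNA2 was at -1.56, CDC25C at -1.05 and WEE1 at 1.09, CDC25B was called higher at 0.40 and CCNB2 lower at -0.28, and CDK1 was at -0.19 (edgeR adjusted p = 0.0677). Leaving out treated library 2 ended the CCNA2 call (log2 fold change -0.97, edgeR adjusted p = 0.0518), and leaving out treated library 1 or 3 ended that of WEE1 (0.94 and 1.02, edgeR adjusted p = 0.0647 and 0.0519), as did library totals in place of TMM (0.94, edgeR adjusted p = 0.0516). CDK1 passed without vehicle library 3 (0.63, edgeR adjusted p = 0.00948) and with the replicate number as a block (0.45, edgeR adjusted p = 0.0348), and was at 0.22 without vehicle library 2 (edgeR adjusted p = 0.196).

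None of the 6 genes for mitotic kinases and the chromosomal passenger complex rose, and 3 fell. PLK1 is given above. AURKB, the kinase of the passenger complex, was at 81.2, 96.3 and 96.7 CPM in treated cells, against 159, 189 and 133 CPM in vehicle cells. The groups did not overlap, and vehicle library 2 was the highest (log2 fold change -0.81, SE 0.152, edgeR adjusted p = 0.00292). CDCA8, which encodes the Borealin subunit, fell as well (64.0 ± 1.77 CPM in treated and 109 ± 6.65 CPM in vehicle cells; SD, n = 3 each; log2 fold change -0.77, SE 0.103, edgeR adjusted p = 0.000649). INCENP, the scaffold of that complex, was lower in every treated library without passing, the nearest treated and vehicle libraries being almost equal (61.4 ± 6.16 CPM in treated and 77.3 ± 9.21 CPM in vehicle cells; log2 fold change -0.33, SE 0.134, edgeR adjusted p = 0.0646). BIRC5, which encodes survivin, the subunit that docks the complex on the centromere, was at 142, 172 and 154 CPM in treated cells, against 135, 159 and 131 CPM in vehicle cells. Its groups overlapped (log2 fold change 0.14, SE 0.125, edgeR adjusted p = 0.36). AURKA, the kinase of the centrosome and spindle poles, was at 132, 137 and 139 CPM in treated cells, against 162, 154 and 171 CPM in vehicle cells. Every treated library was lower, and the difference did not pass (log2 fold change -0.26, SE 0.0987, edgeR adjusted p = 0.0567). In the composition-corrected fit AURKB was at -0.31, still called, PLK1 at -1.12, CDCA8 at -0.66 and INCENP at 0.10 (edgeR adjusted p = 0.626), and AURKA was called at -0.50. AURKA passed with RLE factors, library totals, DESeq2, limma-voom, the stricter count filter and on leaving out vehicle library 2 (-0.32 to -0.25, adjusted p = 0.011 to 0.0489), and INCENP with DESeq2, the stricter filter and without vehicle library 2 (-0.43 to -0.35, adjusted p = 0.0144 to 0.0422).

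The spindle checkpoint split. Its kinases BUB1 and TTK, the pseudokinase BUB1B and the inhibitor MAD2L1 rose. BUB3, the adaptor that brings BUB1 and BUB1B to kinetochores, and CDC20, the checkpoint's target, fell. BUB1 was at 68.6, 58.6 and 63.7 CPM in treated cells, against 26.9, 17.6 and 36.4 CPM in vehicle cells. All treated libraries were above all vehicle libraries, which ran from library 2 up to library 3 (log2 fold change 1.24, SE 0.242, edgeR adjusted p = 0.00354). BUB1B, the BubR1 pseudokinase of the checkpoint complex, was at 86.8, 70.8 and 87.6 CPM in treated cells, against 40.0, 28.0 and 46.6 CPM in vehicle cells, with the same order of vehicle libraries (log2 fold change 1.10, SE 0.196, edgeR adjusted p = 0.00235). TTK, the MPS1 kinase that starts checkpoint signalling, was at 42.1, 35.9 and 40.0 CPM in treated cells, against 20.6, 12.7 and 22.7 CPM in vehicle cells, also without overlap (log2 fold change 1.07, SE 0.216, edgeR adjusted p = 0.00404). MAD2L1 rose by 1.00 on the log2 scale (SE 0.323, edgeR adjusted p = 0.0295). BUB3 was at 60.1, 57.7 and 61.6 CPM in treated cells, against 112, 115 and 123 CPM in vehicle cells. Both groups were tight and well apart (log2 fold change -0.96, SE 0.101, edgeR adjusted p = 0.000246). CDC20 was at 374, 468 and 435 CPM in treated cells, against 761, 937 and 636 CPM in vehicle cells. No treated library reached the lowest vehicle library (log2 fold change -0.87, SE 0.165, edgeR adjusted p = 0.00306). UBE2C, the ubiquitin-conjugating enzyme of the APC/C, was at 214, 226 and 254 CPM in treated cells, against 294, 250.0 and 283 CPM in vehicle cells, with treated library 3 inside the vehicle range (log2 fold change -0.25, SE 0.117, edgeR adjusted p = 0.0988).

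Composition-corrected values were 0.63 for BUB1, 0.46 for BUB1B, 0.38 for TTK, -0.36 for CDC20 and -1.97 for BUB3, all called in the same direction as before, and 0.12 for MAD2L1 (edgeR adjusted p = 0.602) and -0.011 for UBE2C. The MAD2L1 call was lost on leaving out vehicle library 1 or a single treated library, whichever it was (0.96 to 1.09, edgeR adjusted p = 0.0602 to 0.0872) and with library totals (0.91, edgeR adjusted p = 0.076), and UBE2C passed without vehicle library 2 (-0.32, edgeR adjusted p = 0.0298).

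At the centromere and kinetochore 3 of 5 genes rose and none fell. CENPE, the kinesin that carries chromosomes to the spindle equator, was at 51.4, 42.5 and 47.0 CPM in treated cells, against 16.4, 9.98 and 21.3 CPM in vehicle cells. Its lowest treated library was about 2 times its highest vehicle library (log2 fold change 1.56, SE 0.258, edgeR adjusted p = 0.00165). CENPF, a large protein of the outer kinetochore, was at 141, 124 and 129.8 CPM in treated cells, against 85.1, 79.6 and 93.9 CPM in vehicle cells, again without overlap (log2 fold change 0.61, SE 0.113, edgeR adjusted p = 0.00269). NUF2 rose by 1.09 on the log2 scale (edgeR adjusted p = 0.00213). NDC80, its partner in the complex that grips microtubules, was at 29.7, 30.2 and 31.0 CPM in treated cells, against 29.4, 17.7 and 32.6 CPM in vehicle cells. The treated libraries lay inside the vehicle range (log2 fold change 0.19, SE 0.216, edgeR adjusted p = 0.49). CENPA, the histone H3 variant that marks centromeres, was at 15.9, 15.8 and 14.6 CPM in treated cells, against 15.1, 10.6 and 16.9 CPM in vehicle cells and overlapped too (log2 fold change 0.12, SE 0.187, edgeR adjusted p = 0.621). In the composition-corrected fit CENPE was at 0.54 and NUF2 at 0.46, both called, CENPF turned to -0.48 and was called lower (edgeR adjusted p = 0.00668), and NDC80 was called lower at -0.40. The CENPF transcript, at 40.8% GC, and that of CENPE, at 35.3%, are both long and AU-rich.

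Of 9 kinesin and spindle assembly genes 7 rose, although the rise of KIF11 turned to a fall in the composition-corrected fit. KIF14 is given above. KIF20B, a kinesin of cytokinesis, was at 45.4, 34.7 and 37.5 CPM in treated cells, against 18.1, 14.4 and 22.2 CPM in vehicle cells. The groups were well apart (log2 fold change 1.10, SE 0.190, edgeR adjusted p = 0.00199). KIF11, the Eg5 motor that separates spindle poles, was at 64.6, 58.6 and 70.2 CPM in treated cells, against 46.5, 42.3 and 52.0 CPM in vehicle cells. The lowest treated library stood above the highest vehicle library (log2 fold change 0.46, SE 0.128, edgeR adjusted p = 0.0168). TPX2, which activates Aurora A on the spindle, was at 674, 700.4 and 679 CPM in treated cells, against 442, 428 and 416 CPM in vehicle cells, with both groups tight and well apart (log2 fold change 0.67, SE 0.0979, edgeR adjusted p = 0.000929). KIF18A, which dampens chromosome movement at the spindle equator, rose by 1.29, KIF23, the motor of centralspindlin, by 0.73 and HMMR, a spindle-associated hyaluronan receptor, by 0.50 on the log2 scale. KIF2C, a microtubule-depolymerising kinesin, was at 139, 136 and 149.9 CPM in treated cells, against 163, 149.5 and 155 CPM in vehicle cells. It overlapped between groups (log2 fold change -0.14, SE 0.101, edgeR adjusted p = 0.282). KIF20A, which moves the passenger complex to the central spindle, was higher in every treated library without passing (log2 fold change 0.31, SE 0.128, edgeR adjusted p = 0.0733).

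With composition corrected, KIF14 was at 0.99 and KIF18A at 0.54, both called, TPX2 at 0.26, KIF20B at 0.14, KIF23 at 0.055 and HMMR at -0.21 did not pass (edgeR adjusted p = 0.0659 to 0.688), and KIF11 was called lower at -0.49 (edgeR adjusted p = 0.016). The KIF11, KIF23 and HMMR calls were also lost with library totals (edgeR adjusted p = 0.0726 to 0.0898) as well as on leaving out vehicle library 1 or treated library 1 or 3, and that of KIF23 without treated library 2 as well (log2 fold changes 0.39 to 0.45 for KIF11, 0.69 to 0.77 for KIF23 and 0.45 to 0.51 for HMMR, edgeR adjusted p = 0.0532 to 0.0878), and KIF20A passed without vehicle library 3 (0.40, edgeR adjusted p = 0.0179).

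Condensin, which compacts mitotic chromosomes, had 3 of its 4 listed genes higher. SMC4 is given above. SMC2, the other ATPase of the ring, was at 88.1, 66.3 and 80.6 CPM in treated cells, against 35.5, 30.5 and 43.5 CPM in vehicle cells. Treated libraries were all above vehicle libraries (log2 fold change 1.10, SE 0.170, edgeR adjusted p = 0.00121). NCAPG, a regulatory subunit of condensin I, rose by 0.78 on the log2 scale (edgeR adjusted p = 0.00079). NCAPH, the subunit that closes the condensin I ring, was at 46.9, 43.6 and 49.4 CPM in treated cells, against 49.5, 49.0 and 49.4 CPM in vehicle cells. Its vehicle libraries were nearly equal and the treated libraries lay among or below them (log2 fold change -0.080, SE 0.108, edgeR adjusted p = 0.558). TOP2A, the topoisomerase that untangles sister chromatids, was at 237, 191 and 219.5 CPM in treated cells, against 151, 77.3 and 192 CPM in vehicle cells. Vehicle library 3 overlapped the treated libraries (log2 fold change 0.62, SE 0.291, edgeR adjusted p = 0.104). TOP2A was at 0.32 without vehicle library 2, the lowest (edgeR adjusted p = 0.0801). It passed without vehicle library 3 (0.91, edgeR adjusted p = 0.0169) and with the replicate number as a block (0.71, edgeR adjusted p = 0.015). In the composition-corrected fit SMC4 was at 1.05 and called, SMC2 at 0.089, NCAPG at -0.16 and TOP2A at -0.29 did not pass, and NCAPH was called lower at -0.26.

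All 3 cytokinesis genes rose. ANLN, which encodes the scaffold protein anillin of the cleavage furrow, was at 151, 111 and 129.6 CPM in treated cells, against 43.1, 26.1 and 61.7 CPM in vehicle cells. Each treated library was well above vehicle library 3, the highest of its group (log2 fold change 1.58, SE 0.288, edgeR adjusted p = 0.00258). ECT2, the exchange factor that switches on RhoA at the furrow, was at 73.9, 54.9 and 64.5 CPM in treated cells, against 24.6, 17.6 and 31.8 CPM in vehicle cells, with the same order of vehicle libraries (log2 fold change 1.38, SE 0.224, edgeR adjusted p = 0.0015). PRC1, which bundles microtubules of the central spindle, rose by 0.53 (edgeR adjusted p = 0.00675). Composition-corrected values were 0.74 and 0.50, both called, and 0.19 for PRC1 (edgeR adjusted p = 0.299).

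FOXM1, the transcription factor that activates G2 genes, was at 390.4, 397 and 410.3 CPM in treated cells, against 311, 352 and 284 CPM in vehicle cells. The treated libraries were close together and above every vehicle library (log2 fold change 0.34, SE 0.114, edgeR adjusted p = 0.0348). Its call held in the composition-corrected fit (0.44) and was lost with RLE factors or no count filter (edgeR adjusted p = 0.0562 and 0.065) and on leaving out vehicle library 1 or 3 or any 1 treated library (0.26 to 0.35, edgeR adjusted p = 0.0746 to 0.122). MKI67, which encodes the proliferation marker Ki-67, was at 253, 221 and 235 CPM in treated cells, against 251, 255 and 268 CPM in vehicle cells. The groups touched, with treated library 1 inside the vehicle range (log2 fold change -0.13, SE 0.103, edgeR adjusted p = 0.32). The composition-corrected fit called MKI67 lower at -0.77 (edgeR adjusted p = 5.89e-05).

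Direction and transcript composition moved together. The genes that rose had a median GC content of 39.0%, those that fell 51.4% and those that did not pass 48.0%. Over the 44 genes, log2 fold change and GC content had a Spearman correlation of -0.69 (Pearson -0.66), where all 13976 protein-coding genes gave -0.54 (Pearson -0.42). With log length the correlation was 0.53 in the 44 genes and 0.34 in all (Spearman). These are correlations across genes of the same 6 libraries and are descriptions. In the quintile of protein-coding genes with the lowest GC content, 15 of 19 members were higher and 1, BUB3, was lower, against 58.2% and 5.15% of all genes there. In the second quintile 6 of 10 were higher and 2, CCNA2 and CDC25C, lower, against 51.2% and 8.48%. In the third, 1 of 9 was higher, WEE1, and 1 lower, CDCA8, against 33.7% and 21.5%. In the fourth, FOXM1 was higher and PLK1, AURKB and CDC20 were lower of 4, against 15.1% and 44.9%. CDC25B and INCENP, the 2 in the GC-richest quintile, did not pass, where 6.87% of genes were higher and 61.1% lower. BUB3, CCNA2, CDC25C and CDCA8 fell within composition classes in which most called genes were higher. FOXM1 rose in one where most were lower, and its call was lost in 7 of 13 alternatives.

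**Figure D3:**
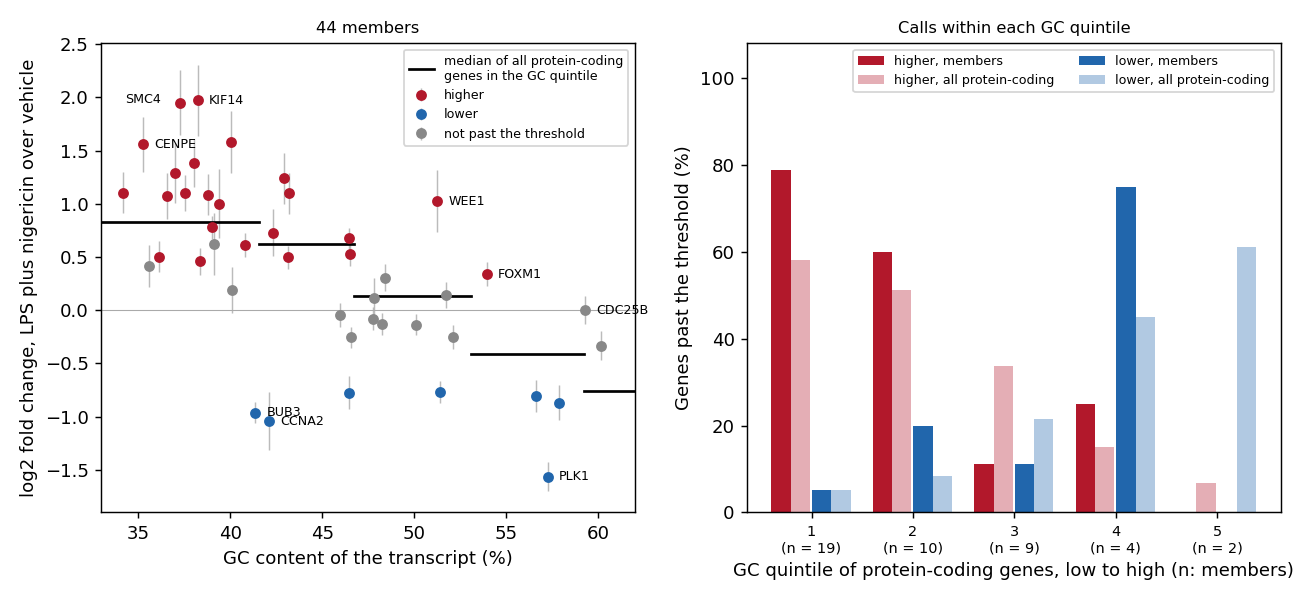
Left, log2 fold change (SE bars, 3 libraries a group) of the 44 genes against the GC content of the representative transcript, coloured by call, with black lines at the median of all protein-coding genes in each GC quintile. Right, share of the 44 genes (solid) and of all protein-coding genes (pale) called higher or lower within each quintile, so that the 19 members of the first quintile show 15 higher beside 58.2% of all genes there.

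The vehicle libraries also differed from each other in this respect. For 19 of the 23 genes that rose, vehicle library 2 was the lowest and vehicle library 3 the highest of the vehicle group. The same order held for 8 of the 14 genes that did not pass, so it was not particular to the rises. For 4 of the 7 that fell the order was the reverse. The share of all tested genes with either order was not computed. The median coefficient of variation was 8.11% in treated and 25.5% in vehicle libraries over the genes that rose, and 7.73% and 16.7% over those that fell. How much of any difference comes from this composition trend was not tested beyond the composition-corrected fit.

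Levels are compared between genes only per kilobase of the representative transcript. UBE2C led in treated cells, with 272 in treated and 324 in vehicle cells (CPM per kilobase), followed by CDC20, with 239 in treated and 438 in vehicle cells. CCNB1 had 211 in treated and 149 in vehicle cells, and TPX2 had 196 in treated and 123 in vehicle cells. PLK1 was the ninth of the 44 genes in treated cells and the third in vehicle cells, with 71.1 in treated and 210.5 in vehicle cells. AURKB was eighth in treated and sixth in vehicle cells.

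Exons of 16 of the 44 genes overlap those of a neighbouring or antisense gene by 50 bases or more, and with no strand setting given, reads of the pair cannot be told apart there. CCNA2 shares 254 bases with EXOSC9, which had 21.4 CPM in treated and 21.5 CPM in vehicle cells. CDC25C, which fell, shares 293 bases with FAM53C, which rose by 1.26 on the log2 scale. FOXM1 shares 781 bases with ITFG2 (log2 fold change 0.43), SMC4 1561 bases with TRIM59 (-0.15) and 607 with IFT80 (0.71), NCAPG 1631 bases with LCORL (0.35) and PRC1 3181 bases with AC068831.7 (-0.36). ITFG2, IFT80, TRIM59 and LCORL were all below 26 CPM in both groups. AC068831.7 was higher than these, at 49.0 CPM in treated and 63.0 CPM in vehicle cells. It lies on the same strand as PRC1, so a strand setting would not separate the pair. The 3181 shared bases exceed the 3034 of the representative PRC1 transcript, and the part of this overlap in the PRC1 rise was not tested. Same-strand overlaps also occur for BUB1B (457 bases with BUB1B-PAK6), CENPA (138 with SLC35F6) and WEE1 (104 with a snoRNA). Their part in the values of these genes was not tested either. The retrocopy CDC20P1 had 2.26 CPM in treated and 3.92 CPM in vehicle cells, far below CDC20 itself.

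A further 135 genes of the same machinery were listed by function, and all 135 were tested. Of these 67 rose (49.6%) and 34 fell (25.2%), against 28.9% and 26.4% of all tested genes, with a median log2 fold change of 0.35. In the composition-corrected fit 38 of the 135 were higher and 43 lower, against 23.8% and 26.6% of 18620 tested genes. Of 20 genes listed as APC/C subunits, activators and inhibitors 5 rose and 7 fell (median -0.04). That list also holds the checkpoint genes MAD1L1 (-1.44), MAD2L1BP and TRIP13 (0.64), which count among these calls. FZR1, which encodes the APC/C activator Cdh1, fell (50.4 ± 3.57 CPM in treated and 156 ± 26.8 CPM in vehicle cells; log2 fold change -1.63, SE 0.148, edgeR adjusted p = 0.00014). Its transcript has 64.0% GC, in the GC-richest quintile, where 61.1% of all protein-coding genes were lower. MAD2L1BP, which encodes a silencer of the checkpoint, fell by 0.88 on the log2 scale. The subunit genes ANAPC1 and CDC27 rose by 0.89 and 1.40. Of 33 other kinetochore and centromere genes 13 rose and 9 fell (median 0.12). SPC24, the partner of NDC80 and NUF2, had the largest fall among the 135 genes (6.74 ± 0.773 CPM in treated and 60.3 ± 11.2 CPM in vehicle cells; log2 fold change -3.16, SE 0.181, edgeR adjusted p = 3.17e-05), with the fall of ZWINT, a kinetochore scaffold, at -1.17. SKA2, of the complex that tracks microtubule ends, and CENPC, of the inner kinetochore, rose by 0.88 and 1.80.

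Of 18 cohesin, separase and other condensin genes 11 rose and 3 fell (median 1.05). NCAPG2, of condensin II, rose strongly (97.7 ± 6.89 CPM in treated and 22.2 ± 4.70 CPM in vehicle cells; log2 fold change 2.13, SE 0.168, edgeR adjusted p = 8.46e-05), as did the cohesin loader gene NIPBL (1.74), while NCAPD2, of condensin I, and NCAPH2, of condensin II, were lower at -0.85 and -0.80. Subunits of both condensins thus moved in either direction before composition was corrected. In the composition-corrected fit the rise of NCAPG, of condensin I, did not pass (-0.16, edgeR adjusted p = 0.429). Composition-corrected values of the single further genes named here are not given, so whether their calls hold in that fit is not shown. Of 34 centrosome and spindle genes 22 rose and 8 fell (median 0.65). RACGAP1, the partner of KIF23 in centralspindlin, rose (119 ± 9.97 CPM in treated and 47.1 ± 7.08 CPM in vehicle cells; log2 fold change 1.34, SE 0.141, edgeR adjusted p = 0.000241), as did SPAG5 (0.84), and the kinesin gene KIF22 and the augmin subunit gene HAUS8 were at -1.25 and -1.51. Of 18 other checkpoint and mitotic kinase genes 9 rose and 4 fell (median 0.41), with the DNA damage kinase gene ATR (1.42) and the phosphatase gene CDC14A (1.93) higher and cyclin F, encoded by CCNF (-1.16), and the CDK subunit gene CKS2 (-0.91) lower. Of 12 DREAM and MuvB genes 7 rose and 3 fell (median 0.64), with LIN52 (2.47) and RBL1, which encodes p107 (1.13), higher and LIN37 (-1.33) and E2F4 (-0.52) lower.

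**Figure D4:**
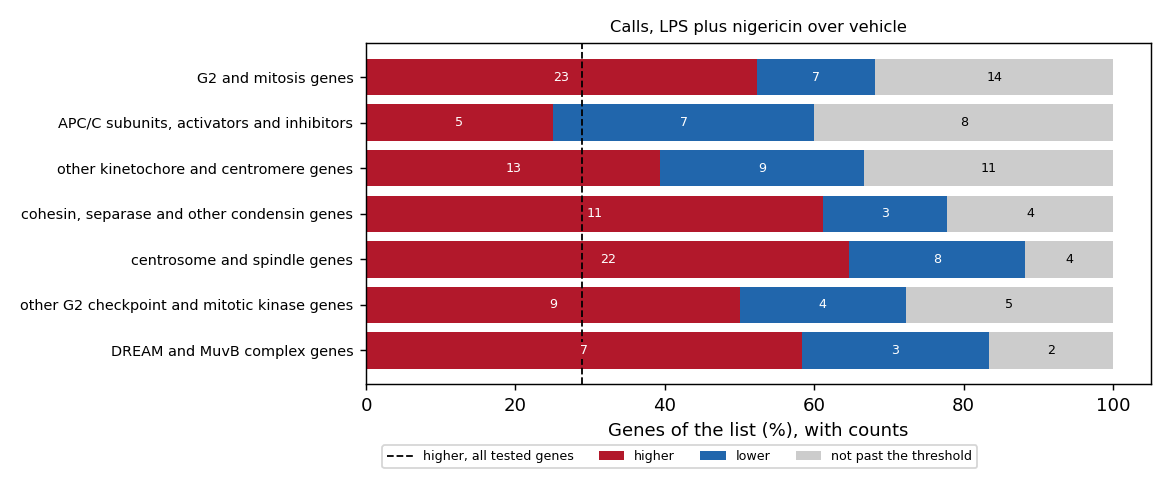
Share of each list that was higher, lower or not past the threshold after LPS plus nigericin relative to vehicle, with counts in the bars (top bar, the 44 G2 and mitosis genes; below, the 135 further genes by function). The dashed line marks the 28.9% of all tested genes that were higher. The APC/C list, which also holds checkpoint genes, is the one whose higher share lies left of that line.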

How the data were processed

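The authors deposited raw counts per Ensembl gene with a column for each library, per the file headers. The build is hg38, per the submitters' processing notes, with aligner, counter, annotation release and strand setting not given in the sources used here. Columns were matched to samples by library name, and 0 columns had no sample. Of 37871 identifiers, 37840 matched a symbol. edgeR 4.0.16 in R 4.3.3 (filterByExpr, TMM, robust quasi-likelihood F test, group as the only term) was fitted to 19170 genes with Benjamini-Hochberg adjustment at 0.05. SE is the absolute log2 fold change over the square root of F. GC content and length are those of the longest principal transcript in GENCODE 29, and the composition-corrected fit used loess offsets (span 0.3) for 18620 genes with both values. Exact permutation of 3 against 3 libraries cannot go below p = 0.1. Replicates differed by 24.1 to 207 chi-square units per degree of freedom, so each was counted as its own library. The scripts were tested on simulated counts.

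The 44 genes, the further lists and the naming rule were chosen with earlier results of these data known. The rule gave values in every library for 31 genes picked by role and for any other among the 5 largest rises or falls, named the 2 genes with the smallest p per direction in each further list, and printed promoters of the 3 largest falls and rises with an entry. Alternatives were RLE factors, library totals, DESeq2 1.42.0, limma-voom (limma 3.58.1), no filter, a filter of 1 CPM in 3 libraries, a replicate block, and leaving out each library. Some marker genes are not reported here.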

Additional observations from a re-analysis of the deposited data

How the results depend on the processing

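Outside the composition correction, the counts of 23 genes higher and 7 lower were 18 to 23 and 7 to 9 with RLE factors, library totals, DESeq2, limma-voom, no filter or a stricter filter. In these fits 16.8% to 34.7% of all tested genes were higher and 15.3% to 33.7% lower. Leaving out 1 library at a time gave 17 to 25 higher and 6 to 10 lower, with a median of 0.38 to 0.52, and 0.38 was the value without vehicle library 2. The share of all tested genes moved as well, at 21.8% to 30.3% higher and 20.1% to 26.4% lower. The count of 17 came without treated library 1 or 3, where 21.8% and 22.4% of all tested genes were higher. Counting the replicate block, 13 alternatives left composition uncorrected, and 17 of the 23 rises and 6 of the 7 falls passed in all 13. With GC and length offsets 13 genes were higher and 14 lower (median 0.045), and with the replicate block in the same fit 15 and 13 (median 0.059). For the 135 further genes, 38 were higher with the offsets and 37 with the block added. Whether replicate numbers pair the libraries is not known from the labels. Correlations of same-number deviations were -0.023, 0.096 and -0.024, within the -0.10 to 0.12 of libraries with different numbers. With 3 libraries a group these values cannot decide the question. The replicate block alone gave 25 higher and 7 lower. The cause of these shifts was not tested.

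Signs turned with the offsets, and with offsets plus block in second place, for CENPF (-0.48, -0.47), KIF11 (-0.49, -0.48), NDC80 (-0.40, -0.39), TOP2A (-0.29, -0.27), HMMR (-0.21, -0.21), CDK1 (-0.19, -0.19), NCAPG (-0.16, -0.14), INCENP (0.10, 0.11) and CDC25B (0.40, 0.40), and with the offsets alone for CCNB1 (-0.0080). Among genes near 0 in the reported fit, signs also turned for CDC25B with limma-voom (0.0071) and the block (0.0050), and on leaving out 1 library at a time for CDC25B (-0.10 to 0.11), CENPA (-0.058 to 0.25), NDC80 (-0.038 to 0.35) and CCNB2 (-0.11 to 0.0097). Counts were high enough for the 44 genes that the spread between libraries, rather than depth, limited precision.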
